A study of Mus musculus with 6 samples.

Results

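Kruppel-like factors were examined in naive CD8 T cells of mouse spleen that differed in the brightness of a Nur77-GFP reporter. The members were 10 named genes (Klf2, Klf3, Klf4, Klf6, Klf7, Klf9, Klf10, Klf11, Klf12 and Klf13), looked up by symbol in the deposited table of expression values, and 9 of them were found among its 11162 genes. Klf9 was not listed, so its expression is not analysed here. All mice carried the transgene Tg(Nr4a1-EGFP)GY139Gsat, in which green fluorescent protein is driven by regulatory sequence of Nr4a1, the gene of the immediate early protein Nur77, which T-cell receptor signals induce. All cells were CD8+ and OT-I, that is, they carried 1 transgenic T-cell receptor, and were sorted as CD44lo and Qa2hi, among other surface features. GFP-hi (Nur77-GFPhi) and GFP-lo (Nur77-GFPlo) cells of this gate were sequenced as 3 libraries each. No treatment, time course, age or animal number was given in the sources used here, and nothing said that the libraries of a group came from separate animals, so p-values measure the spread between these libraries, which may be technical.

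Kruppel-like factors are transcription factors that bind GC-rich and CACCC sequences through zinc fingers at their C-terminal end and recruit coactivators or corepressors through the rest of the protein. In naive T cells KLF2 is known for keeping cells quiescent and recirculating, through genes such as S1pr1, and its RNA is lost when the T-cell receptor is strongly engaged. Several members (Klf2, Klf4, Klf6 and Klf10) are also immediate early genes, whose RNA changes within a short time of stimulation or cell handling.

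Expression values were RPKM, reads per kilobase of transcript scaled to library size. Library depth, recovered from the spacing of low values, was 26171100 to 35939300 reads. All 6 markers of CD8 T cells were listed, with a summed level of 1750 to 1860 RPKM in GFP-hi and 1720 to 1780 RPKM in GFP-lo libraries. Among defining markers of other cells, Cd4, Foxp3, Cd79a, Lyz2, Csf1r, Ncr1 and Klrb1c were not listed. The 1 listed of 3 markers of CD4 T cells, Cd40lg, had 14.2 to 22.7 RPKM in GFP-hi and 35.4 to 46.8 RPKM in GFP-lo libraries, with no overlap; its part in the results was not tested. The 2 listed of 5 B cell markers summed to 12.5 to 14.2 RPKM (GFP-hi) and 10.9 to 11.3 RPKM (GFP-lo), also with no overlap. The part of this difference in the results was not tested either. The 2 listed of 4 thymocyte markers reached at most 2.59 RPKM, and the 1 listed marker each of myeloid, erythroid and of platelet and endothelial cells at most 0.431, 1.94 and 0.357 RPKM. In bulk RNA of this kind, fewer cells that express a gene and less of its RNA per cell cannot be told apart. Nr4a1 had 56.6, 90.9 and 37.0 RPKM in GFP-hi and 63.1, 84.9 and 33.8 RPKM in GFP-lo libraries, so it gave no check of the sort labels.

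The family was dominated by Klf2 and Klf6, in both populations. Klf2 averaged 567 ± 51.7 RPKM over the 6 libraries (SD, n = 6) and ranked 9 of the 11162 listed genes. Klf6 averaged 218 ± 28.1 RPKM (SD, n = 6) and ranked 59. Together they made up 89.6% to 91.6% of the summed RPKM of the family, which came to 832 ± 81.9 RPKM for GFP-hi cells and 903 ± 77.5 RPKM for GFP-lo cells (SD, n = 3 each). Klf3 (40.6 ± 2.55 RPKM) and Klf13 (24.6 ± 1.81 RPKM) followed, and this order of 4 genes was the same in each of the 6 libraries. None of their ranges overlapped with that of the next gene in the order. Klf7 (5.44 ± 0.595 RPKM), Klf11 (5.27 ± 0.868 RPKM), Klf10 (3.50 ± 0.975 RPKM) and Klf4 (2.48 ± 0.721 RPKM; SD, n = 6 for each) were far below Klf2. Neighbours among these 4 overlapped in their ranges. Klf12 averaged 0.191 RPKM.

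**Figure D1:**
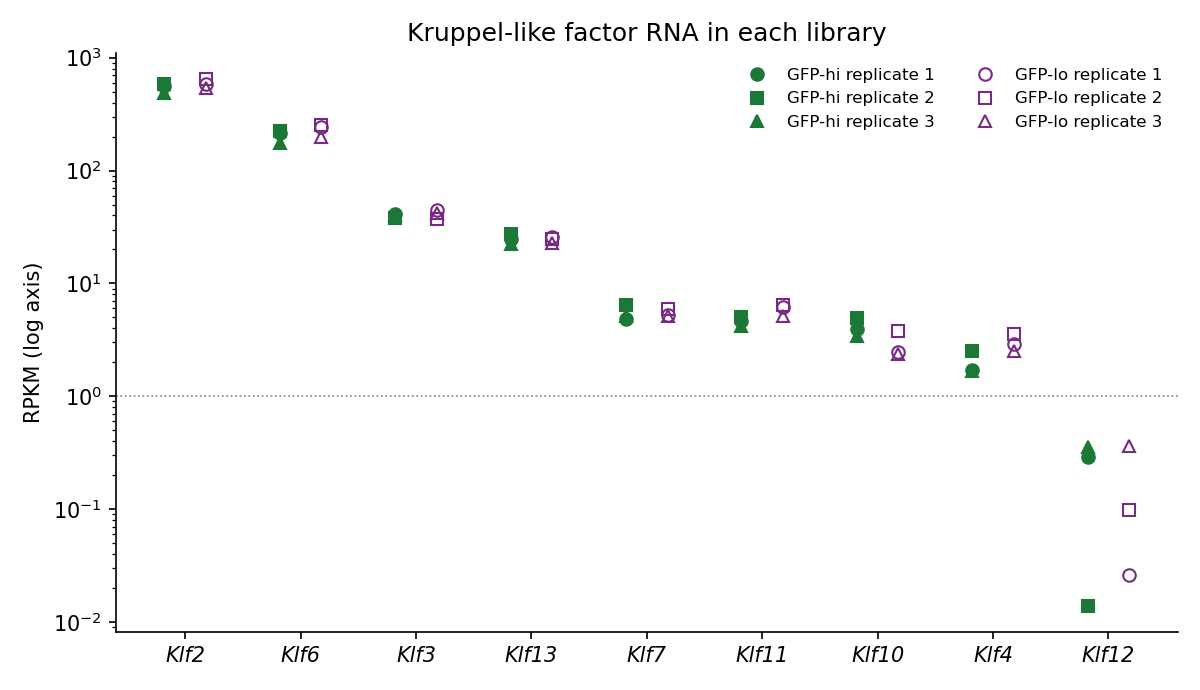
RPKM of the 9 listed Kruppel-like factors (log axis) in each library, in order of the mean. Filled symbols are GFP-hi, open symbols GFP-lo, symbol shapes are replicates 1 to 3, and the dotted line marks 1 RPKM, the minimum mean of a tested gene. Klf2 and Klf6 lie far above the rest, and Klf12 lies below the line in all 6 libraries.

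No Kruppel-like factor differed between GFP-hi and GFP-lo cells after correction for all genes tested. Of the 9 listed members, 8 passed the filter of a mean of at least 1 RPKM and 0 of these 8 had a limma adjusted p under 0.05, a threshold that 3.95% of the 9351 tested genes passed (2.46% higher and 1.49% lower). At an unadjusted p under 0.05 there were 3 of 8 members (Klf4, Klf10 and Klf11), against 20.2% of all tested genes. The groups did not overlap for 1 of 8 members, Klf11, against 26.9% of all tested genes. The log2 fold change, GFP-hi over GFP-lo on the log2(RPKM + 1) scale, was below 0 for 6 of the 8 members and for 44.5% of all tested genes, and its median was -0.08 over the members and 0.02 over all tested genes. For members at low RPKM, such as Klf4 and Klf10, this scale gives a smaller change than the RPKM themselves.

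**Figure D2:**
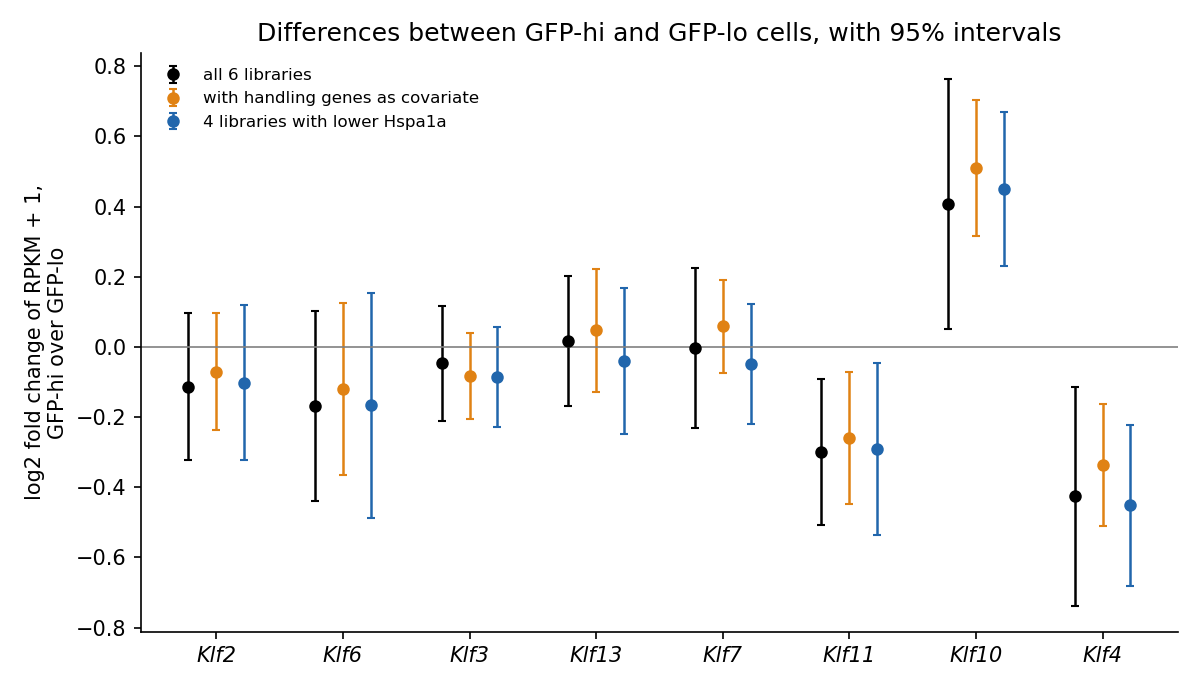
Log2 fold change of RPKM + 1 (GFP-hi over GFP-lo) of the 8 tested members with 95% limma intervals: all 6 libraries (black), with the mean of the handling genes as a covariate (orange), and in the 4 libraries with lower Hspa1a (blue). Klf4 and Klf11 lie below 0 and Klf10 above 0 in all 3 fits, and the intervals of the more abundant members include 0.

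The sequences upstream of Klf2, Klf4 and Klf11 are shown because Klf2 was the most abundant member, Klf11 had the smallest p and Klf4 the largest fold change in size among the members. They are the 250 bases before the RefSeq start site (assembly GRCm38.p6, the assembly of the mm10 build named in the submitters' processing notes), with every match to CACCC or GGGCGG, on either strand, in capitals. The Klf2 stretch lies at chr8:72318812-72319061 on the plus strand, the Klf4 stretch at chr4:55532476-55532725 on the minus strand and the Klf11 stretch at chr12:24651121-24651370 on the plus strand.
Klf2: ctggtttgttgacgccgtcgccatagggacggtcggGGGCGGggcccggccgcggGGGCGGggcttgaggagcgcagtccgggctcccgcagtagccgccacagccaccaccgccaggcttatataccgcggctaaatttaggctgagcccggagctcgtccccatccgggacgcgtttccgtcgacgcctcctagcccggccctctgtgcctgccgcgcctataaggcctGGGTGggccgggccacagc
Klf4: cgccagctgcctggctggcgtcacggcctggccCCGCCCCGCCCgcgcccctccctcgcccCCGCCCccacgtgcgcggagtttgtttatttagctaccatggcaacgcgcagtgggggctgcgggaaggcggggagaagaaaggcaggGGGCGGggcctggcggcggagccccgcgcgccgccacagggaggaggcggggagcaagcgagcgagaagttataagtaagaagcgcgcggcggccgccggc
Klf11: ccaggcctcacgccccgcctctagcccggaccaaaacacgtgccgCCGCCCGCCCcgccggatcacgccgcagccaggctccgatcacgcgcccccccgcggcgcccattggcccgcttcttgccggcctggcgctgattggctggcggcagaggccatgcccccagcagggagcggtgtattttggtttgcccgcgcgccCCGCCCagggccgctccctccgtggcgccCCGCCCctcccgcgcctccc
GGGCGG, the GC box, was found 2 times upstream of Klf2, 4 times upstream of Klf4 and 4 times upstream of Klf11, and CACCC 1 time, upstream of Klf2. In the same window GGGCGG stood in 7 of the 9 members with an entry and in 32.7% of 32851 RefSeq promoters, and CACCC in 6 of 9 and in 52.0%. Klf10 had no entry. The letters TGACGTCA (1.55% of promoters) were found in none of the 9, and GTAAACA (3.17%) and TGANTCA (6.75%) were found in Klf9 alone. The GC content of these stretches was 71.2%, 74.0% and 76.8%, against a median of 52.4% over all promoters, and GGGCGG itself consists of G and C. A match is a description of letters and not a bound site.

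Among the members usually grouped as activators, Klf2 (Entrez 16598, chromosome 8, 72319062 to 72321654) had 563, 585 and 486 RPKM in the GFP-hi libraries and 580, 643 and 544 RPKM in the GFP-lo libraries. The groups overlapped, with 1 of the 3 GFP-hi libraries below the lowest GFP-lo library. The log2 fold change was -0.11 with a 95% interval from -0.32 to 0.10 (limma, adjusted p = 0.55), which corresponds to a fold between 0.799 and 1.07. Each value rested on 14200 to 20900 reads per kilobase. The interval is therefore set by the spread between libraries, and a larger loss of Klf2 RNA than its lower bound lies outside it.

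Klf6 (Entrez 23849, chromosome 13, 5861489 to 5870393), an immediate early member found in many tissues, had 216, 225 and 176 RPKM in GFP-hi and 241, 253 and 199 RPKM in GFP-lo libraries. These values overlapped as well, and the log2 fold change was -0.17 with an interval from -0.44 to 0.10 (limma, adjusted p = 0.48). The ratio of Klf2 to Klf6 was 2.66 ± 0.0929 in GFP-hi and 2.56 ± 0.160 in GFP-lo (SD, n = 3 each), so the pair kept nearly the same proportion in the 6 libraries, from 2.41 to 2.76.

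Klf4 (Entrez 16600, chromosome 4, 55527137 to 55532475), known to restrain the division of CD8 T cells, had 1.71, 2.53 and 1.69 RPKM in GFP-hi and 2.90, 3.58 and 2.50 RPKM in GFP-lo libraries. GFP-hi replicates 1 and 3 lay below every GFP-lo library, and GFP-hi replicate 2 lay just above GFP-lo replicate 3. Mean levels were 1.98 ± 0.480 RPKM in the former and 2.99 ± 0.545 RPKM in the latter population (SD, n = 3 each). On the log2 scale Klf4 differed by -0.43 with an interval from -0.74 to -0.11 (limma, adjusted p = 0.13). The fold change was below 0 in all 17 alternative fits that tested Klf4, from -0.58 to -0.32, with limma adjusted p values from 0.012 to 0.33. All of them reuse the same libraries, and without GFP-lo replicate 2 the interval included 0 (-0.65 to 0.0033). The values rested on 48.8 to 104 reads per kilobase. Klf7 (Entrez 93691, chromosome 1, 64029448 to 64122345), a relative of Klf6, had 4.84, 6.38 and 5.10 RPKM in GFP-hi and 5.23, 5.96 and 5.12 RPKM in GFP-lo libraries. The mean was 5.44 RPKM in both groups, and the 95% interval of the log2 fold change ran from -0.23 to 0.22 (limma, adjusted p = 0.99). In GENCODE M21, exons of Klf7 share bases with the opposite-strand genes Gm26649 and Gm13748, whose reads cannot be told apart without strand.

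The members that act through the Sin3 corepressor went in different directions without passing the threshold. Klf11 (Entrez 194655, chromosome 12, 24651371 to 24662782) had 4.69, 4.998 and 4.17 RPKM in GFP-hi and 6.14, 6.45 and 5.17 RPKM in GFP-lo libraries. All 3 GFP-hi libraries lay below the lowest GFP-lo library, by a small margin. Mean levels were 4.62 ± 0.416 against 5.92 ± 0.666 RPKM (SD, n = 3 each). The estimated log2 difference was -0.30, with an interval from -0.51 to -0.09 (limma, adjusted p = 0.12). Over 18 alternative fits it ran from -0.38 to -0.24, with limma adjusted p values from 0.020 to 0.31.

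Klf10 (Entrez 21847, chromosome 15, 38291464 to 38300711), a gene induced by TGF-beta, was the member with the largest positive fold change. It had 3.95, 4.98 and 3.44 RPKM in GFP-hi and 2.49, 3.77 and 2.38 RPKM in GFP-lo libraries. GFP-hi replicates 1 and 2 lay above every GFP-lo library, and GFP-hi replicate 3 lay below GFP-lo replicate 2. Mean levels were 4.12 ± 0.786 against 2.88 ± 0.776 RPKM (SD, n = 3 each). The estimated log2 difference was 0.41, with an interval from 0.05 to 0.76 (limma, adjusted p = 0.20). It was above 0 in all 17 alternative fits that tested it, from 0.21 to 0.57, with limma adjusted p values from 0.017 to 0.41. These fits reuse the same libraries. In some the interval included 0, such as without GFP-hi replicate 2 (-0.07 to 0.65). Klf13 (Entrez 50794, chromosome 7, 63886351 to 63938915), known as an activator of the chemokine gene Ccl5 in T cells, had 24.9, 27.2 and 22.2 RPKM in GFP-hi and 25.6, 24.7 and 22.9 RPKM in GFP-lo libraries. The estimate for Klf13 was 0.02 with an interval from -0.17 to 0.20 (limma, adjusted p = 0.93), and the sign was negative in 6 of 18 alternative fits.

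The members that recruit the CtBP corepressor were Klf3 and Klf12. Klf3 (Entrez 16599, chromosome 5, 64803521 to 64832901) had 41.1, 38.2 and 40.1 RPKM in GFP-hi and 44.3, 37.4 and 42.1 RPKM in GFP-lo libraries. The groups overlapped, and the log2 fold change of -0.05 had an interval from -0.21 to 0.12 (limma, adjusted p = 0.78), which corresponds to a fold between 0.864 and 1.08. Exons of Klf3 share bases with the opposite-strand gene Gm20033. Klf12 (Entrez 16597) had 0.290, 0.014 and 0.355 RPKM in GFP-hi and 0.026, 0.098 and 0.360 RPKM in GFP-lo libraries, that is 0.475 to 10.5 reads per kilobase, and was not tested. Its values varied more within each population than between their means of 0.220 and 0.161 RPKM.

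Within single libraries, the proportions of the low members differed between the populations more clearly than the levels did. The ratio of Klf10 to Klf4 was 2.30, 1.97 and 2.04 in the GFP-hi libraries and 0.859, 1.06 and 0.952 in the GFP-lo libraries. Klf10 was thus the more abundant of the pair in all 3 GFP-hi libraries, whereas both genes were at nearly the same level in GFP-lo. The mean ratio was 2.10 ± 0.177 against 0.956 ± 0.0985 (SD, n = 3 each). The ratio of Klf10 to Klf11 averaged 0.887 ± 0.0951 in GFP-hi and 0.483 ± 0.0919 in GFP-lo, and that of Klf11 to Klf7 averaged 0.857 ± 0.0987 and 1.09 ± 0.0809 (SD, n = 3 each). Klf7 was above Klf11 in each GFP-hi library and below it in each GFP-lo library. Among the 28 pairs of tested members, 16 (57.1%) had ratios that did not overlap between the populations, against 27.6% of all pairs of tested genes. The 28 pairs reuse 8 genes and are not independent, and most of the 16 include Klf4, Klf10 or Klf11. Some of the 16 were barely apart. On the log2 scale the populations were separated by 0.0054 for Klf2 to Klf13 and 0.00355 for Klf6 to Klf13, against 0.898 for Klf4 to Klf10. These ratios were chosen after their values were seen and carry no test.

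**Figure D3:**
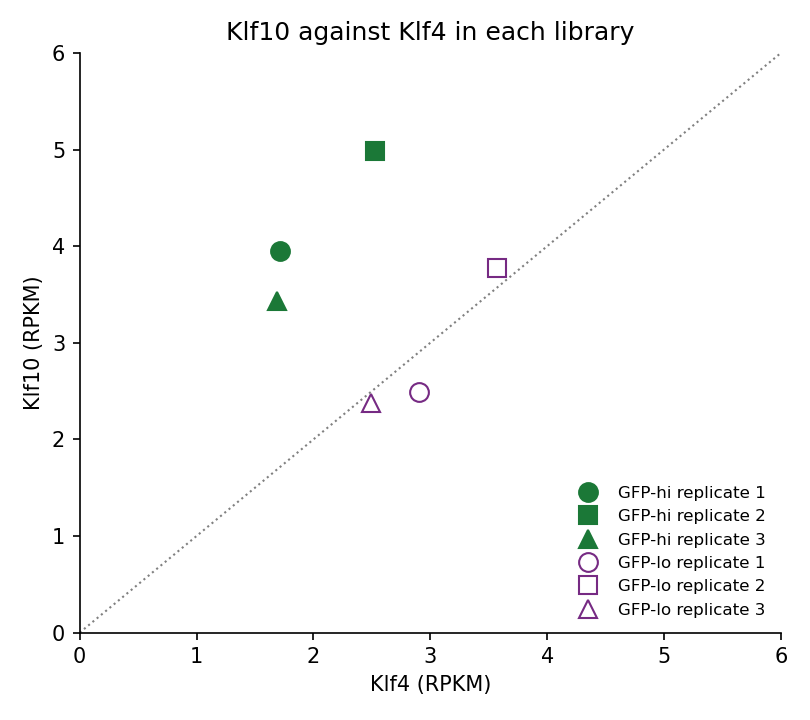
Klf10 against Klf4 in RPKM, 1 point per library, with a dotted line where both are equal. The 3 GFP-hi libraries (filled) lie well above the line, at ratios of 1.97 to 2.30, and the 3 GFP-lo libraries (open) lie on or near it, at ratios of 0.859 to 1.06.

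Handling genes, immediate early and heat-shock genes that respond when cells are isolated, moved with part of these values. Their immediate early genes include Nr4a1, which T-cell receptor signals also induce, so the list cannot tell handling from receptor signalling. The heat-shock gene Hspa1a had 1100 RPKM in GFP-hi replicate 2 and 1234 RPKM in GFP-lo replicate 2, against 158, 152, 235 and 211 RPKM in the other 4 libraries. The mean log2(RPKM + 1) of 23 listed handling genes was 7.34 and 7.46 in those 2 libraries, 6.43 and 6.52 in the other GFP-hi libraries and 6.71 and 6.74 in the other GFP-lo libraries. Of the 8 tested members, 6 (Klf2, Klf4, Klf6, Klf7, Klf10 and Klf11) were highest in replicate 2 of both populations, a pattern that 19.9% of all tested genes had, and Klf3 was lowest in both. The spread within the groups was wide for Klf10 (SD 0.249 on the log2(RPKM + 1) scale), Klf4 (0.210) and Klf6 (0.186). The median over all tested genes was 0.0897. Replicate 3 of each population had the lowest Klf6, at 176 RPKM (GFP-hi) and 199 RPKM (GFP-lo). Replicates 1 and 2 lay closer together. What caused the spread was not tested.

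Of the 23 handling genes, 16 had a negative log2 fold change, against 44.5% of all tested genes. Their median was -0.24, and leaving out GFP-hi replicate 1 moved it to -0.01 and leaving out GFP-lo replicate 2 to 0.09. Leaving out any other single library gave a median between -0.39 and -0.12. In the 4 libraries with lower Hspa1a the median was -0.30. Fos, an AP-1 subunit, was at -0.18 (limma, adjusted p = 0.62). Socs3, a feedback inhibitor of cytokine signalling, was the only gene of the list to pass, at -0.93 (limma, adjusted p = 0.021). It had 27.3, 45.6 and 36.6 RPKM in GFP-hi and 63.4, 76.9 and 68.2 RPKM in GFP-lo libraries. The call for Socs3 was lost in 4 of the 6 fits without 1 library, namely without GFP-hi replicate 3 and without each GFP-lo library, at limma adjusted p values of at most 0.083. The log2 fold change of Socs3 was between -1.11 and -0.75 in all 6 of these fits.

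With the mean of the handling genes as a covariate, Klf10 was higher in GFP-hi cells (0.51 on the log2 scale, limma adjusted p = 0.017) and Klf4 was lower (-0.34, adjusted p = 0.040), while Klf11 was at -0.26 (adjusted p = 0.090). In that fit 8.32% of all tested genes passed. Whether this covariate, which includes Nr4a1, also takes up receptor signalling was not tested. The covariate was 6.43, 7.34 and 6.52 in GFP-hi and 6.71, 7.46 and 6.74 in GFP-lo libraries. It also includes Socs3, which passed in the main fit (-0.93, limma adjusted p = 0.021). How far it takes up the difference between the populations was not tested either. Array quality weights, which weight each library by how well it fits its group, gave -0.56 for Klf4 (limma, adjusted p = 0.012) and -0.37 for Klf11 (adjusted p = 0.020) but 0.21 for Klf10 (adjusted p = 0.33), with 13.7% of all genes passing. In the 4 libraries with lower Hspa1a the log2 fold changes of Klf4, Klf10 and Klf11 were -0.45, 0.45 and -0.29 (limma, adjusted p = 0.10, 0.097 and 0.25), where 1.08% of all genes passed. In that fit the direction of these 3 members was the same as with all libraries, 4 of which it reuses. Hspa1a itself was at -0.52 there (limma, adjusted p = 0.044), so the fit did not even out Hspa1a between the populations. What set the direction was not tested. The difference between the log2 fold changes of Klf10 and Klf4, 0.83 with all libraries, was 0.77 to 1.10 over the alternative fits.

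**Figure D4:**
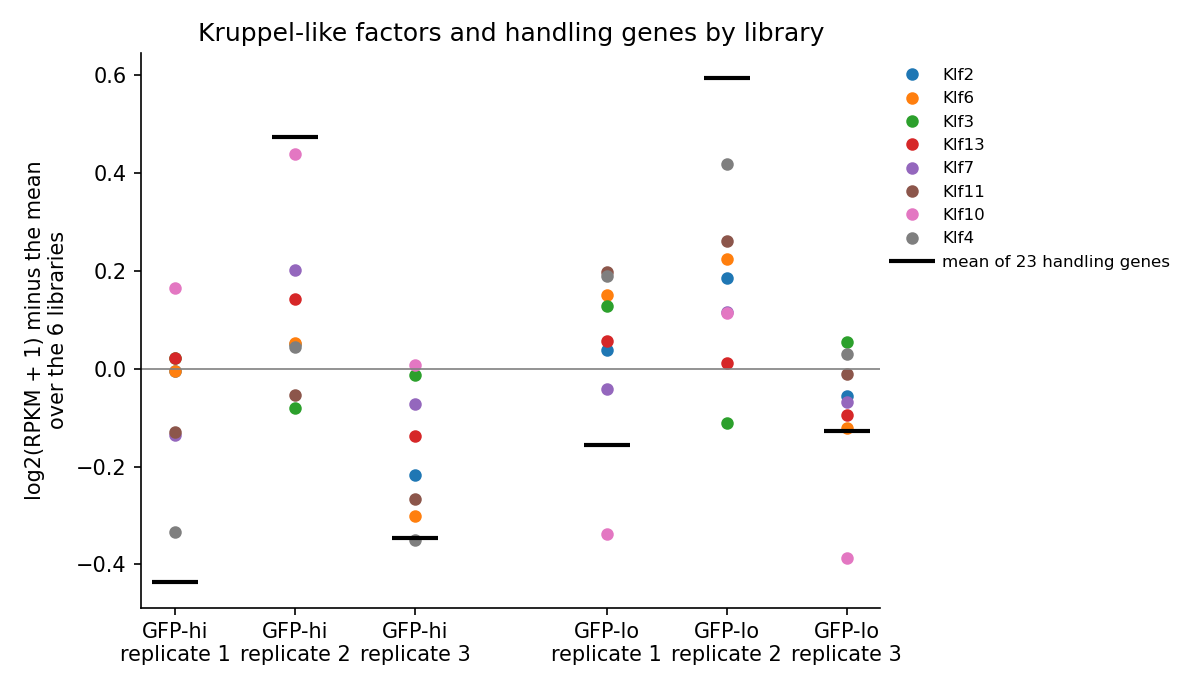
Log2(RPKM + 1) of each tested member minus its mean over the 6 libraries (coloured points), with the mean of 23 handling genes drawn the same way (black bars). The bars stand highest in replicate 2 of both populations, and most members are highest there too, with Klf3 (green) at its lowest.

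Genes reported to depend on a Kruppel-like factor were compared next, with 11 of 18 tested and the rest not listed. Of the 11 genes 0 were higher and 1 lower at a limma adjusted p under 0.05, against 2.46% and 1.49% of all tested genes. The log2 fold change was negative for 9 of the 11, with a median of -0.07, against 44.5% and a median of 0.02 over all tested genes. The list joins genes raised and genes held down by a factor, so this count does not give a common direction of factor activity. Of the KLF2 targets of naive T cells, S1pr1 and Itgb7 had narrow intervals. S1pr1, the receptor that lets T cells leave lymphoid organs, had 282, 267 and 267 RPKM in GFP-hi and 303, 269 and 281 RPKM in GFP-lo libraries (log2 fold change -0.07, 95% interval -0.21 to 0.08, limma adjusted p = 0.62). Itgb7, an integrin chain for homing to the gut, had 310, 316 and 289 RPKM against 325, 310 and 284 RPKM, with an interval from -0.16 to 0.16 (limma, adjusted p = 0.98). Both overlapped between the populations.

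The gene that fell was Cxcr3, a chemokine receptor of effector and memory T cells that is raised when KLF2 is missing. It had 8.87, 9.12 and 12.6 RPKM in GFP-hi and 23.5, 22.3 and 31.4 RPKM in GFP-lo libraries, with no overlap (log2 fold change -1.26, standard error 0.16, limma adjusted p = 0.0054). In the 4 libraries with lower Hspa1a its log2 fold change was -1.28 with a limma adjusted p of 0.05001, at the threshold. Eomes and Myc, reported as held down by a family member, had intervals from -0.33 to 0.31 and from -0.13 to 0.24. Ccl5, the gene activated by KLF13, had 3.16, 4.49 and 4.55 RPKM in GFP-hi and 4.15, 6.16 and 6.94 RPKM in GFP-lo libraries (-0.40, limma adjusted p = 0.24).

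**Figure D5:**
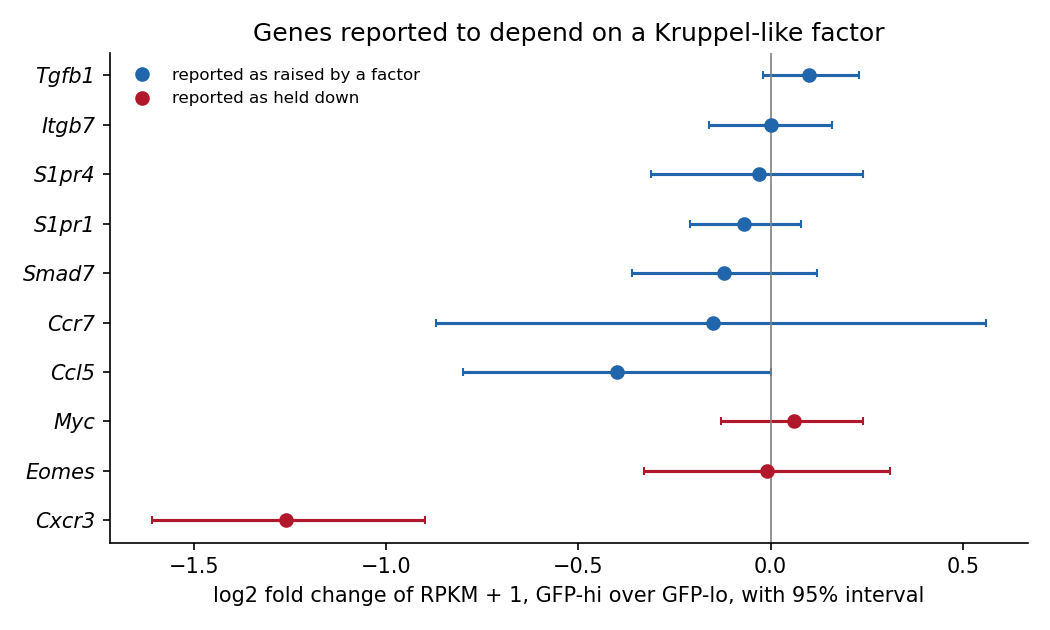
Log2 fold change of RPKM + 1 (GFP-hi over GFP-lo) with 95% limma intervals for 10 of the 11 tested genes reported as raised (blue) or held down (red) by a Kruppel-like factor. Cxcr3, at -1.26, stands apart from the others, most of whose intervals include 0.

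Genes that regulate or serve the family had no called member, where 3.95% of all tested genes passed and 20.2% had an unadjusted p under 0.05. Of 13 tested regulators of Kruppel-like factor RNA or protein (the FOXO, AKT, MEK5-ERK5-MEF2 and ubiquitin ligase genes) none passed limma, with a median log2 fold change of -0.04 and a range from -0.18 to 0.21, and 2 had an unadjusted p under 0.05. These 2 were Akt2 and Foxo1, named after their values were seen. Akt2, a kinase that keeps FOXO proteins out of the nucleus, had 18.2, 18.1 and 17.0 RPKM in GFP-hi and 16.2, 14.9 and 14.4 RPKM in GFP-lo libraries (log2 fold change 0.21, limma adjusted p = 0.11). Foxo1, an activator of Klf2, had 55.0, 56.5 and 53.1 RPKM in GFP-hi and 51.0, 49.4 and 48.8 RPKM in GFP-lo libraries (0.14, limma adjusted p = 0.18). Of 11 tested corepressors and coactivators none passed, with a median of 0.04 and 3 at an unadjusted p under 0.05. These 3 were Hdac2 (0.21), Hdac1 (0.17) and Crebbp (-0.16), with limma adjusted p values of 0.11, 0.13 and 0.18. Ctbp1, the partner of KLF3, was at 0.02 (interval -0.15 to 0.19), and Sin3a, the partner of KLF10, KLF11 and KLF13, at -0.03 (interval -0.20 to 0.13).

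Of the other zinc finger relatives, Sp1, Sp2, Sp3, Sp4 and Klf16 were tested and 0 of 5 passed, with a median of -0.06 and 2 at an unadjusted p under 0.05. Sp4 came closest, with 5.83, 6.04 and 6.18 RPKM in GFP-hi and 7.23, 7.25 and 7.02 RPKM in GFP-lo libraries (log2 fold change -0.22, limma adjusted p = 0.071). Under limma its adjusted p was 0.04957 when libraries were scaled by the trimmed mean of M values (TMM) and 0.023 with array quality weights. Klf16, at 8.01 RPKM in GFP-hi replicate 2 and 4.06 to 6.58 RPKM in the other libraries, had an interval from -0.34 to 0.54. Klf8 was at or below 0.440 RPKM and was not tested.

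By Pearson's r of log2(RPKM + 1) over the 6 libraries, given as a description because any factor that varies between libraries, such as depth or handling, enters all genes of a library, the tested genes most like Klf11 were Zfp715 (0.996), Parp16 (0.988) and C87436 (0.986). Those most like Klf2 were Picalm (0.972), Letmd1 (0.972) and Pja1 (0.970). With 6 libraries such values are common, since 108 tested genes reached an r of at least 0.9 with Klf11 and 34 did so with Klf2.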

How the data were processed

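RNA from 6 sorted samples was made into libraries with the SMART-seq v4 and Nextera XT kits, per the labels' protocols. The authors deposited 1 RPKM column per sample, per the file headers, matched to samples by title. STAR and mm10 are named in the submitters' processing notes; the counter, annotation, strand setting and gene filter were not given in the sources used here. Genes with a mean of at least 1 RPKM (9351 of 11162) were tested with limma 3.58.1 (R 4.3.3), with a mean-variance trend, on log2(RPKM + 1), two-sided, with Benjamini-Hochberg adjustment over all tested genes; 1811 were left out. In data simulated for this comparison over 9351 genes, 97.2% of 200 genes changed by 1 on the log2 scale were recovered and 4.23% of calls were false. The simulated noise was independent between genes, with no factor shared within a library. No member changed by as much as 1, so these rates do not apply to the members. Depth was recovered from RPKM times transcript length of 800 GENCODE M21 single-transcript genes, where 89.4% to 91.7% of low values lay within 0.1 of a whole read (20% by chance). Replicate numbers follow record order. Libraries of the same number had similar Hspa1a and Nr4a1 levels in both groups, but no label says that they belong together, so no pairing entered the fit, and its intervals include any spread that such pairs would share. Members and lists were chosen with earlier results of these data known. The text names all members, genes of each list with an adjusted p under 0.05 (up to 6), S1pr1, Itgb7, Hspa1a, Fos and the 3 genes most like Klf11 and Klf2; other names were chosen after their values were seen, and 1 gene of this rule is not reported here. The 18 alternatives changed the pseudocount, filter, scaling, variance model, covariate and libraries. Figures were drawn with matplotlib 3.10.9.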

Additional observations from a re-analysis of the deposited data

How the results depend on the processing

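The count of 0 called members was kept in 16 of 18 alternatives and was 2 with array quality weights and 2 with the handling genes as a covariate; leaving out 1 library gave 0 each time. The count of all called genes, 369, was 202 with a minimum mean of 5 RPKM, 1282 with array quality weights, 778 with the covariate, 101 in the 4 libraries with lower Hspa1a and 133 to 315 without 1 library. Among lists, the KLF-dependent genes had 0 calls in the 4 libraries. The regulators had 2 with array quality weights, the corepressors and coactivators 1 with those weights and 1 with the covariate, and the relatives 1 after TMM scaling and 1 with array quality weights. The handling genes had 5 with array quality weights, 7 with the covariate, 4 in the 4 libraries and 0 to 2 without 1 library. The covariate is the mean of these same genes, so its fit is no separate check on them.

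The log2 fold changes of 6 genes with intervals that include 0 changed sign. Klf3 was 0.0043 with array quality weights and -0.11 to 0.0049 when 1 library was left out. Klf7 was 0.06 with the covariate and -0.11 to 0.06 when 1 library was left out. Klf13 was -0.01 with quantile normalization, -0.01 after TMM scaling, -0.07 with array quality weights, -0.04 in the 4 libraries and -0.05 to 0.09 when 1 library was left out. Itgb7 was 0.01 with the covariate and -0.06 to 0.04 when 1 library was left out. Klf16 was -0.03 with array quality weights, -0.03 in the 4 libraries and -0.09 to 0.22 when 1 library was left out. Hspa1a was 0.27 with the covariate, of which it is part, and -1.34 to 0.42 when 1 library was left out. The cause was not tested. Fewer libraries also lower the number of calls. No paired analysis was possible because the labels give no replicate numbers and record order cannot pair samples; whether same-numbered libraries come from 1 animal is not known. Klf12, at a mean of 0.191 RPKM, fell below the filter of the main fit, and Klf4 rested on 48.8 to 104 reads per kilobase.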
